A study of Homo sapiens with 12 samples.

Results

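DDIT3 and 4 other genes of the amino acid stress response, NUPR1, SESN2, INHBE and ADM2, were followed in cells kept over several passages with lactate, with acid, or with the 2 combined. They were picked by name, after earlier results of these data had shown large falls against control, so the values of treated against control cells below are a description and carry no test. The 5 genes stand among 5308 genes listed in any of the 3 tables the authors deposited. Each table holds 4 of the 5, and DDIT3, SESN2 and INHBE are in all 3. NUPR1 is listed for lactic acidosis only, and ADM2 for lactosis and acidosis only; their levels in the other cultures were not analysed here.

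The cells were KKU-213A, a human line from a cholangiocarcinoma (bile duct cancer) whose histology is given as papillary mixed with non-papillary. There were 3 libraries of poly(A) RNA in each group, sequenced as single-end reads of 75 nt. All groups shared low-glucose medium with serum and antibiotics, and control cells were untreated, at a pH the labels do not give. Lactic acidosis medium, reached stepwise, had a pH of 6.7 with L-lactate at 25 mM and the buffer HEPES at 25 mM, lactosis medium held 25 mM L-lactate at pH 7.4, and acidosis medium held 25 mM HEPES at pH 6.5. Treated cells spent at least 5 passages in their medium. HEPES is stated for the lactic acidosis and acidosis media only, so acid and buffer cannot be told apart, and neither can a treatment and time in its medium. The cells are a single line, and the labels do not say whether replicate libraries are separate cultures; the p-values then reflect just how libraries vary, and that variation may be technical.

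When amino acids run short, or proteins misfold in the endoplasmic reticulum, kinases phosphorylate the initiation factor eIF2, general translation slows, and translation of the transcription factor ATF4 increases. ATF4 then switches on genes for amino acid import and synthesis together with regulators such as DDIT3. If the stress lasts, DDIT3, also called CHOP, pushes cells towards death, while SESN2 restrains the growth kinase complex mTORC1. NUPR1 is a small chromatin-associated stress protein, and INHBE and ADM2 encode secreted peptides, an inhibin subunit and a member of the calcitonin family also called intermedin.

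DDIT3 lies on the minus strand of chromosome 12 from 57516588 to 57521737 in GRCh38, and INHBE lies on the plus strand of the same chromosome from 57452323 to 57459280, so the pair is 57308 bases apart. NUPR1 is on chromosome 16 from 28532708 to 28539174, SESN2 on chromosome 1 from 28259527 to 28282491 and ADM2 on chromosome 22 from 50481556 to 50486440. RefSeq promoters (GRCh38.p14) were at hand for 3 of the 5, DDIT3, SESN2 and ADM2. The upstream 250 bases of DDIT3 (chr12:57520515-57520764, minus strand) and SESN2 (chr1:28259268-28259517, plus strand) are shown because both genes are in every table and were low in all treated groups. Capitals mark a match to the ER stress element without its last base, a pattern chosen after the sequences were seen.
DDIT3: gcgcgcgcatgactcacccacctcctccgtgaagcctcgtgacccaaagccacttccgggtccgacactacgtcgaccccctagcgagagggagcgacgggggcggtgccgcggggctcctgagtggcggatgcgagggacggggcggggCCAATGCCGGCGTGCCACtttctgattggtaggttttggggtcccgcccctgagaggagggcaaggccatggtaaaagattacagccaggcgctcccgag
SESN2: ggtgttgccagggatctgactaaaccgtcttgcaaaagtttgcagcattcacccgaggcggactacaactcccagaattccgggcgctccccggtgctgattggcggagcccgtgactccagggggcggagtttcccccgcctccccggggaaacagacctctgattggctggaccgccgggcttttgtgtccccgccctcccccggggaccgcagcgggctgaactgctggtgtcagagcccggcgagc
In DDIT3 the match spans bases -100 to -83 before the RefSeq start used here, and -97 to -80 before a second RefSeq start. The printed DDIT3 window lies inside the DDIT3 span given above, whose own start is further upstream. Of the 35116 promoters searched, 0.316% hold the shortened element on either strand. The full ER stress element is in none of the 3 promoters and in 0.0769% of all. The composite element of the amino acid response, TGATGNAA, and the cyclic AMP response element, TGACGTCA, were also searched on both strands; neither is in these 3 windows, and 3.62% and 1.85% of all promoters hold them. No match says only that these letters are not in these windows.

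Values are the expression value that the authors gave for each library, taken here as length-scaled. The read depth of a library is unknown from the tables. Relative to control 1, fitted library weights were 0.791 and 0.772 for controls 2 and 3, and values of control 1 lay low for most genes. KRT19, a marker of bile duct cells, averaged 3791 ± 869 (SD, n = 3) in control. Of the 8 bile duct markers on the list used, 2 were listed in lactic acidosis. KRT19 was lower and SOX9 higher there, at -0.48 and 1.45 by the authors' deposited log2 fold change. The hepatocyte marker SERPINA1 and the leukocyte marker CD68 were also listed higher there, at 0.65 and 0.48. No fibroblast marker was listed in any treatment, and a gene that is not listed may still be expressed. Muscle genes set libraries apart. The 7 markers listed for lactosis summed to 56.0 in replicate 2, at most 0.53 in the other lactosis libraries and 0.66 to 1.5 in control. The 9 listed for lactic acidosis summed to 55.5 in replicate 2 against 17.0 and 18.7, with 38.4 to 57.8 in control. Most of that control sum was TNNI2, at 26.2, 35.4 and 41.0. ACTA1 stood at 0.58, 0.35 and 1.03 in control and at 19.65 in lactic acidosis replicate 2. Of the 12 muscle markers, 0 were listed for acidosis, so its libraries could not be checked for them. The part of muscle transcripts in the results was not tested. Comparisons of the 5 genes between treated groups were repeated without lactic acidosis replicate 2 or lactosis replicate 2, those of other genes were not.

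DDIT3, the transcription factor CHOP, was the most abundant of the 5 genes in control cells per unit of length and far lower in all treated libraries. Its value was 678, 481 and 203 in the 3 control libraries, 15.1, 17.0 and 17.0 in lactic acidosis, 16.6, 12.95 and 12.5 in lactosis, and 35.0, 29.2 and 30.4 in acidosis. The controls differed several-fold among themselves while the treated libraries lay close together, and no treated library reached the lowest control. The lowest control stood 11.9-fold above the highest lactic acidosis library, 12.2-fold above the highest lactosis library and 5.79-fold above the highest acidosis library. The mean was 454 ± 239 (SD, n = 3) in control, and DDIT3 kept 3.60% of it in lactic acidosis, 3.09% in lactosis and 6.94% under acidosis. The authors' deposited tables set it 30.4-fold, 33.5-fold and 14.7-fold lower, in that order, with a probability of equal expression of 5.60e-04, 0.00357 and 0.0480. The last of these lies just inside the listing threshold of 0.05, although the fold is large. In the authors' deposited tables the size-scaled mean count behind DDIT3 was 125.7 in lactic acidosis and 101.7 in lactosis. Of its exonic bases, 27.2% overlap exons of MARS, a tRNA synthetase gene on the other strand that is not listed, and whether counting used strand is not given in the sources used here. Exons of AC022506.1, a coding gene on the same strand that is not listed, overlap 8% of the exonic bases of DDIT3. Of the 75-base windows of DDIT3 transcripts, 16.2% also occur in transcripts of AC022506.1 or MARS.

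NUPR1 showed the widest control range of the set. Its value was 235, 105 and 34.5 in the control libraries and 4.90, 6.41 and 5.25 in lactic acidosis. The lowest control was 5.39-fold above the highest lactic acidosis library, and the group mean was 4.43% of control. The authors' deposited table sets NUPR1 26.0-fold lower in lactic acidosis, the 8th most negative of 4279 listed genes, while DDIT3 was the 7th.

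SESN2, the leucine-binding inhibitor of mTORC1 signalling, changed less and was steadier in control. It stood at 37.4, 48.6 and 26.2 in control libraries and at 7.74, 9.70 and 8.26 in lactic acidosis. In lactosis the values were 6.84, 4.77 and 5.55, and in acidosis 8.89, 6.53 and 7.11. Every treated library was below every control, by at least 2.70-fold in lactic acidosis, 3.83-fold in lactosis and 2.95-fold under acidosis. The group means were 22.9%, 15.3% and 20.1% of control. The authors' deposited tables give SESN2 folds of 4.78, 6.77 and 5.10 lower in the same order, with probabilities of equal expression of 1.63e-06, 9.82e-07 and 4.76e-06, below those of DDIT3 in every table although its folds were smaller.

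INHBE, the inhibin beta E subunit, was low in control and lower in every treatment, with a level in lactic acidosis that stood apart. Its value was 11.2, 7.94 and 3.47 in control and 0.89, 0.97 and 1.42 in lactic acidosis. It was 0.33, 0.08 and 0.20 in lactosis and 0.21, 0.10 and 0.36 in acidosis. The lactic acidosis libraries lay between the controls and the other treated libraries without overlap on either side. INHBE kept 14.5% of its control mean in lactic acidosis, against 2.70% in lactosis and 2.97% under acidosis, and the authors' deposited tables give folds of 7.69, 36.9 and 32.5 lower. These low levels rest on few reads, since the authors' deposited mean counts were 22.7 in lactic acidosis, 3.89 in lactosis and 4.93 under acidosis.

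ADM2, which encodes the peptide intermedin, was the least abundant. It stood at 3.96, 3.36 and 1.04 in control, at 0.11, 0.14 and 0.08 in lactosis, and at 0.12, 0.12 and 0.31 in acidosis. The treated libraries again lay below all controls, with means of 3.95% and 6.58% of control. The authors' deposited tables set ADM2 25.1-fold lower in lactosis and 15.4-fold lower in acidosis, on mean counts of 3.67 and 6.88.

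For each of the listings above, 4 genes in each of 3 tables, all treated libraries were below all controls and the gene was at least 2-fold lower by the authors' deposited fold. Among all listed genes, every treated library was below every control for 32% in lactic acidosis, 31.9% in lactosis and 25.3% under acidosis. A listing as lower made up 41.1%, 40.7% and 38.9% of listed genes, and at least 2-fold lower 15.7%, 12.8% and 8.48%. Because the genes were chosen on this contrast, nothing is read from their count.

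**Figure D1:**
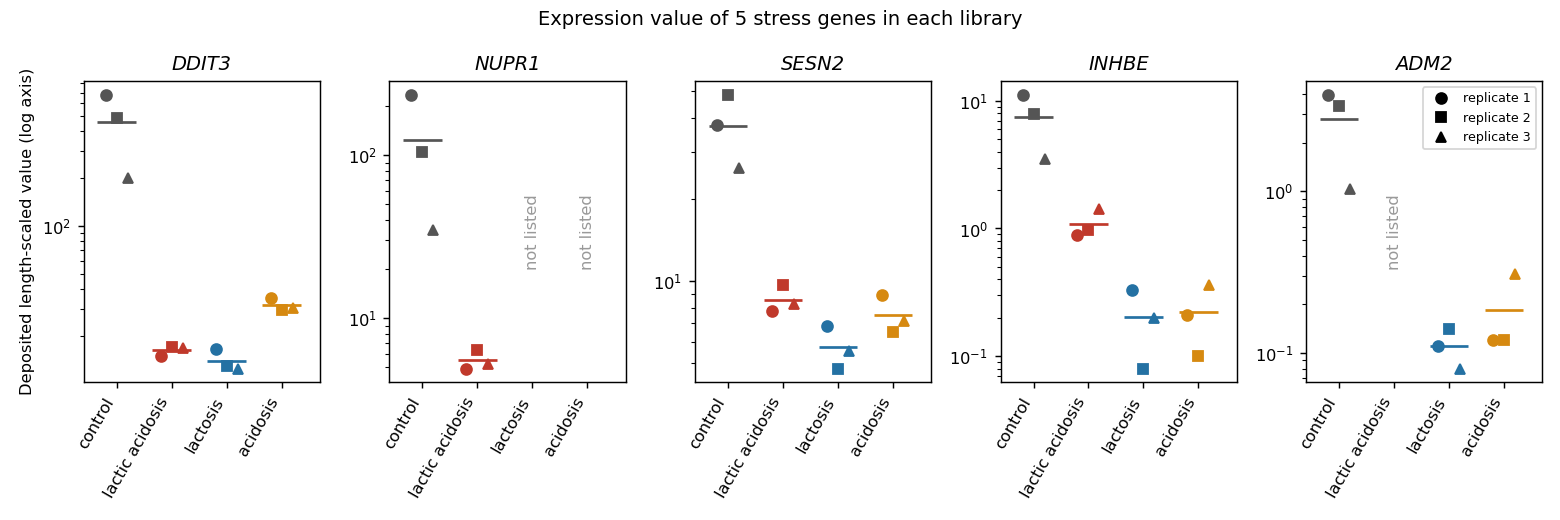
Deposited length-scaled value (vertical log axis, scaled for each gene) of the 5 genes in each library, with groups along the horizontal axis, a marker shape for each replicate number and a horizontal line at the group mean. Every treated library lies below the lowest control, the 3 controls are far apart for all genes but SESN2, and acidosis lies above the other treatments for DDIT3 while lactic acidosis does for INHBE.

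Treated groups were compared directly, without the control libraries, to ask whether lactate, acid and their combination left the same level. DDIT3 was higher in acidosis than in either culture with lactate, and INHBE was higher in lactic acidosis than in either single treatment, so this pair from chromosome 12 had different orders. SESN2 was higher in lactic acidosis than in lactosis. Limma was fitted to log2(value + 1) of all genes listed in both tables of a pair, and 10 of these tests concern the 5 genes, of which 5 passed an adjusted p of 0.05 over all genes tested. Listing in a table depended on the treated libraries too, so these tests are not wholly separate from the choice of genes. Across all genes, 20.4% passed between lactic acidosis and lactosis, 48.8% between lactic acidosis and acidosis, and 23.9% between lactosis and acidosis.

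DDIT3 fell short of its acidosis level by 0.90 on the log2(value + 1) scale in lactic acidosis (standard error 0.09, adjusted p = 6.06e-05, limma) and by 1.12 in lactosis (standard error 0.12, adjusted p = 9.05e-04, limma). All 3 acidosis libraries were above all 6 libraries with lactate. Among the genes tested, 10% passed as lower in lactic acidosis than in acidosis and 7.5% as lower in lactosis than in acidosis. DDIT3 had the 74th largest absolute difference of 1304 genes in the former comparison and the 13th largest of 1173 in the latter. Lactic acidosis and lactosis did not differ beyond the spread for DDIT3, with a difference of 0.22 and a 95% interval from -0.03 to 0.46 (adjusted p = 0.183, limma). The order of its levels was therefore control, acidosis, then lactic acidosis and lactosis, with the last pair not separated.

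INHBE was 0.80 higher in lactic acidosis than in lactosis (standard error 0.11, adjusted p = 9.98e-04, limma) and 0.77 higher than in acidosis (standard error 0.11, adjusted p = 5.98e-04, limma), in 3 of 3 libraries each time. At this low level the size depends on the pseudocount: the differences came to 2.04 and 1.94 with 0.1, and to 0.23 and 0.22 with 5, and passed each time. Being higher in lactic acidosis was common among the genes tested, at 15.7% against lactosis and 38.7% against acidosis. Lactosis and acidosis did not differ beyond the spread for INHBE, at -0.02 with an interval from -0.27 to 0.22 (adjusted p = 0.905, limma). For ADM2 the same comparison gave -0.09, with an interval from -0.28 to 0.10 (adjusted p = 0.493, limma). Adding 1 narrows both intervals at such low values. With a pseudocount of 0.1 they ran from -1.03 to 0.83 for INHBE and from -0.98 to 0.23 for ADM2. Equal levels in lactosis and acidosis are therefore not shown for these 2 genes.

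SESN2 was 0.52 higher in lactic acidosis than in lactosis (standard error 0.12, adjusted p = 0.0138, limma). Without lactic acidosis replicate 2, a library with muscle transcripts, the difference was 0.43 and the call was lost (adjusted p = 0.0651, limma). The call held with any other single library left out, at an adjusted p of at most 0.0440 (limma). The difference between lactic acidosis and acidosis was 0.17 with an interval from -0.09 to 0.44 (adjusted p = 0.243, limma). It passed without acidosis replicate 1, at 0.29 (adjusted p = 0.0345, limma), and was 0.01 with libraries scaled by median ratios (adjusted p = 0.929, limma). Lactosis stood below acidosis by -0.34 with an interval from -0.66 to -0.03 (adjusted p = 0.115, limma), which passed when libraries were scaled by median ratios (adjusted p = 0.0241, limma). The median gene was 0.11 higher in lactic acidosis than in lactosis, 0.16 higher than in acidosis, and 0.05 higher in lactosis than in acidosis. The share of passing genes that were higher in the first group went from 76.6% to 50.8% for lactic acidosis against lactosis under that scaling, from 79.4% to 51.9% against acidosis, and from 68.6% to 52.7% for lactosis against acidosis. The calls of DDIT3 and INHBE stood under it.

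**Figure D2:**
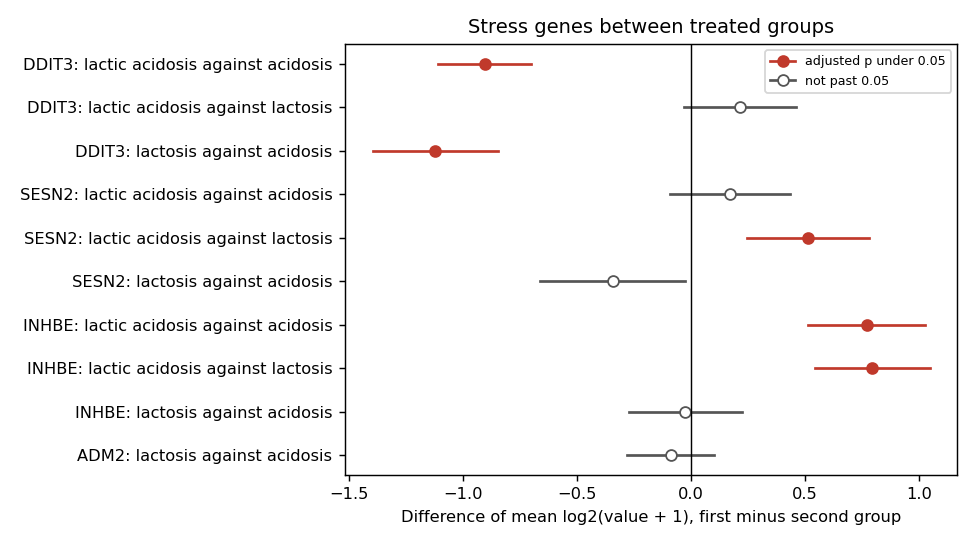
Difference of mean log2(value + 1), first minus second named group (horizontal axis), for the 4 genes listed in both tables of a pair, with 95% limma intervals as bars and filled red points where the adjusted p is under 0.05. DDIT3 lies to the left wherever acidosis is the second group, and both comparisons of INHBE with lactic acidosis lie to the right.

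The 3 control libraries differed among themselves for these genes more than for most others. DDIT3, NUPR1, INHBE and ADM2 were highest in control 1 and lowest in control 3, and SESN2 was highest in control 2 and lowest in control 3. The highest control was 3.35-fold the lowest for DDIT3, 6.79-fold for NUPR1, 3.21-fold for INHBE, 3.81-fold for ADM2 and 1.86-fold for SESN2. Over the 5048 listed genes with a control mean of at least 1, the median was 1.43-fold. A range as wide as that of DDIT3 was found in 1.21% of these genes, as wide as that of NUPR1 in 0.198%, INHBE in 1.37%, ADM2 in 0.792% and SESN2 in 16.1%. With libraries rescaled to the authors' group means these shares were 0.357% for DDIT3, 0.178% for NUPR1, 0.396% for INHBE, 0.277% for ADM2 and 6.32% for SESN2.

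The direction of this spread ran against that of most genes. Control 1 was below control 3 for the median gene, with a ratio of 0.741, and 499 genes were at least 2-fold lower in control 1 while 33 genes (0.654%) were at least 2-fold higher. The 4 genes other than SESN2 are among those 33. With libraries rescaled to the authors' group means the ratio of the median gene was 0.959, the same 4 genes passed 2-fold, and 78 genes did in all. The ranges became wider, 4.34-fold for DDIT3 and 8.80-fold for NUPR1, so the ranges are as large with that scale removed. Of the 33 genes, 32 were listed lower in every table that held them, and 431 of the 499 were listed higher only. Genes that are not listed were not seen, so these counts describe listed genes and not all genes. Listing may favour genes with a wide control range whose treated libraries lie far away, which was not tested.

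**Figure D3:**
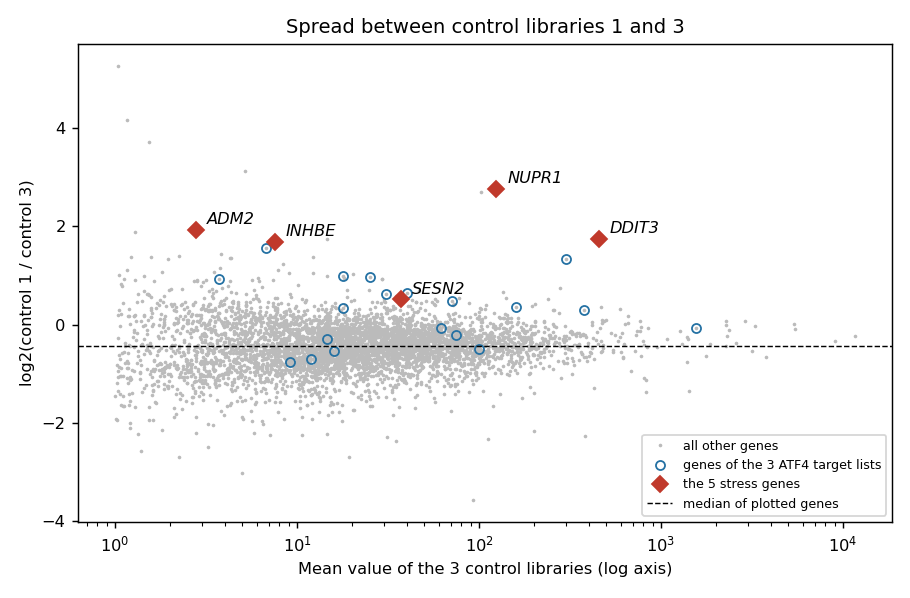
Ratio of control 1 to control 3 on the log2 scale (vertical axis) against the mean control value (horizontal log axis) for genes with a control mean of at least 1, with the 5 genes as red diamonds, listed genes of 3 ATF4 target lists as blue circles and the median as a dashed line. The 4 genes other than SESN2 lie well above the cloud, from 3.21-fold to 6.79-fold, and most genes lie below 0.

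The 10 genes with the widest control range at a control mean of at least 10 fell into opposite groups. SMN2 and EIF3CL, which were listed at 0 in some control libraries, have near-identical copies and their values are uncertain. NUPR1 and LCN2, a secreted iron-binding protein, were highest in control 1, and LCN2 stood at 206, 69.6 and 32.0. THBS1, a matrix protein, F3, the tissue factor gene, PRSS23, TNS4, and the replication-linked genes UHRF1 and FAM111B were lowest in control 1. THBS1 stood at 15.2, 82.5 and 180 and F3 at 131, 379 and 631. The group lowest in control 1 was listed higher in each table that held its genes.

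The control spread sets how far each fold depends on a single control library. The difference of mean log2(value + 1) between lactic acidosis and control was -4.55 for DDIT3, and -4.18 without control 1 or -5.05 without control 3. For NUPR1 it was -3.89, and -3.24 or -4.60 without the same libraries. No direction changed when any library was left out, and the differences of the 5 genes from control moved by less than the spread between libraries each time.

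Likeness to DDIT3 was measured as Pearson's r of log2(value + 1) over the 12 libraries among 1027 genes listed in all tables with a control mean of at least 1. The libraries share their controls and a large step between control and treated cells, so r is a description. The highest were RNF19B at 0.984, TSC22D3 at 0.980, CYP4F11 at 0.976, TNFSF15 at 0.975, THG1L at 0.971, ATF3 at 0.968, NFKBIL1 at 0.968 and PPARGC1A at 0.964. RNF19B, a ubiquitin ligase gene, stood at 37.2, 40.8 and 33.9 in control and between 17.5 and 23.2 in treated libraries. SESN2 came 11th, at 0.961, and INHBE 56th, at 0.912, and the 2 correlated with each other at 0.958.

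Other targets of ATF4 were read from lists of known genes. In each table, most of the ATF4 targets on the lists were not listed, and the counts below concern those that were. Among all listed genes, 41.1%, 40.7% and 38.9% were lower in lactic acidosis, lactosis and acidosis. Of 28 stress effectors, 8 were listed in lactic acidosis, all lower, with a median log2 fold change of -2.38. In lactosis 10 were lower and 1 higher, with a median of -2.19, and in acidosis 7 were lower and 0 higher, with a median of -1.14. Over all listed genes the medians were 0.37, 0.35 and 0.32. These listed genes are the authors' calls on the same libraries that led to the 5 genes, and the lists were written with that known.

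CHAC1, which degrades glutathione, stood at 51.6, 78.6 and 54.5 in control, at 11.1, 15.6 and 11.5 in lactic acidosis, at 3.71, 2.99 and 3.81 in lactosis and at 3.59, 4.29 and 4.05 in acidosis. Like INHBE it was higher in lactic acidosis, by 1.60 over lactosis and 1.45 over acidosis (adjusted p = 2.04e-05 and 2.40e-05, limma). KLHL24 and DDIT4, an inhibitor of mTORC1, followed the order of DDIT3. KLHL24 was -1.29 and -1.04 in lactic acidosis and lactosis relative to acidosis (adjusted p = 1.72e-04 and 0.00566, limma), and DDIT4 was -0.48 and -0.65 (adjusted p = 0.00107 and 0.00375, limma). Of 5 effectors tested between lactic acidosis and acidosis, 1 passed as higher and 2 as lower, beside 48.8% of all genes passing. ATF3 at -0.08 and JDP2 at -0.10 did not pass there (adjusted p = 0.422 and 0.476, limma). Between lactosis and acidosis 4 of 7 passed, all lower, beside 23.9% of all genes. HERPUD1, a component of endoplasmic reticulum degradation, shared the control pattern of DDIT3, at 390, 355 and 155, and had authors' deposited log2 fold changes of -2.80 in lactic acidosis and -3.26 in lactosis. ATF5 was the effector listed higher, at 0.66 in lactosis in the authors' deposited table. Among the other effectors, ATF3, a repressor induced in the same response, was at -2.01, -2.40 and -1.80 by the authors' deposited log2 fold change, and BCL2L11, a death gene, had -0.91 in lactic acidosis.

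Of 15 genes of amino acid synthesis, 3 were listed in lactic acidosis, PSPH and CTH lower and ALDH18A1 higher, and with a stricter probability of 0.01 neither PSPH (0.0458) nor CTH (0.0306 in the authors' deposited table) would be listed there. PSPH, the last enzyme of serine synthesis, stood at 78.4, 78.1 and 56.2 in control and at 37.5, 41.1 and 39.9 in lactic acidosis. In lactosis 1 was lower and 1 higher, and in acidosis 1 was listed, higher. Of 10 amino acid transporters, 2, 2 and 4 were listed in lactic acidosis, lactosis and acidosis, all lower. SLC1A4, which carries neutral amino acids, was at -1.64, -1.73 and -1.87, and SLC7A11, the cystine importer, at -1.61 in lactosis and -2.23 in acidosis in the authors' deposited tables. Of 20 cytosolic tRNA synthetases, FARSB alone was listed, higher in lactic acidosis and lactosis by 0.29 and 0.18.

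**Figure D4:**
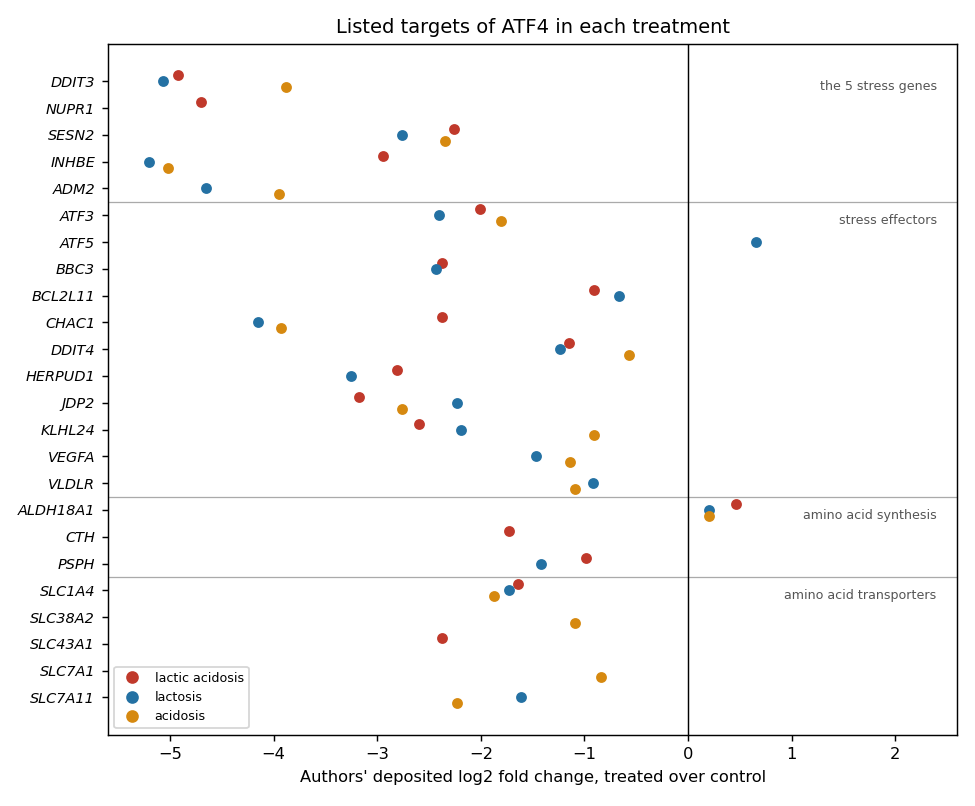
Authors' deposited log2 fold change of treated over control cells (horizontal axis) for the 5 genes and for every listed gene of 3 lists of ATF4 targets, with a colour for each treatment; a missing point means the gene is not in that table. ATF5 and ALDH18A1 are the genes to the right of 0.

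Other parts of the response were counted against the shares of listed genes that were lower, 41.1%, 40.7% and 38.9%. The lists share genes, so their counts are not separate. HERPUD1, ATF3, ATF5, JDP2, DDIT4 and BBC3, already counted as stress effectors, are counted again in this or the following lists. Of 25 genes for eIF2 kinases, eIF2, eIF2B and their transcription factors, 5 were higher and 2 lower in lactic acidosis, 3 and 2 in lactosis, and 2 and 2 in acidosis. ATF4 itself is in none of the tables. EIF2S1, the eIF2 alpha subunit, was higher by 0.57, 0.48 and 0.36 in the authors' deposited tables. Of 23 genes of the ATF6 and XBP1 branches of the unfolded protein response, the listed ones were HERPUD1 and ERN1, the sensor IRE1, both lower; their probabilities of equal expression, from 0.0147 to 0.0401 in the authors' deposited tables, all miss a stricter threshold of 0.01. In the C/EBP and ATF family, 8 of 22 genes were lower and 2 higher in lactic acidosis, 6 and 3 in lactosis, and 6 and 1 in acidosis, with JDP2 at -3.17, -2.23 and -2.76 in the authors' deposited tables.

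Relatives of the individual genes were read in the same way. Of 37 genes of sestrins, GADD45 proteins and amino acid sensing, 6 were lower and 1 higher in lactic acidosis, 3 and 1 in lactosis, and 3 and 0 in acidosis. FLCN, a regulator of mTORC1 at the lysosome, was at -0.46, -0.60 and -0.57 in the authors' deposited tables. Of 17 activin and inhibin genes, INHBA, the activin A subunit, was listed higher in every table while INHBE was lower. INHBA stood at 2.44, 2.22 and 3.47 in control and at 25.0, 21.8 and 22.9 in lactic acidosis, and by the authors' deposited log2 fold change it was at 2.98, 1.87 and 0.91. FST, the activin-binding protein follistatin, was at 2.15 in lactic acidosis and 2.45 in lactosis. In that family 2 were higher and 1 lower in lactic acidosis, 2 and 2 in lactosis, and 1 and 2 in acidosis. Of 11 genes of the calcitonin family and its receptors, ADM, the closest relative of ADM2 on the list, was lower in lactic acidosis at -1.19, CRCP was higher there at 0.26, and ADM5 was higher in lactosis at 0.75.

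Lists for 2 other regulators of these genes were mixed. Of 22 targets of p53, 4 were higher and 8 lower in lactic acidosis, 4 and 6 in lactosis, and 1 and 2 in acidosis. TP53INP1, an autophagy regulator, was at -2.74, -2.11 and -0.87 in the authors' deposited tables. Of 16 targets of NRF2, the oxidative stress factor, 2 were higher and 2 lower in lactic acidosis, 1 and 0 in lactosis, and 1 and 1 in acidosis.

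Genes next to the 5 were read for shared changes. Within 100 kb of DDIT3 lie 14 other protein-coding genes, of which 4 were listed: INHBE, MBD6, R3HDM2 and PIP4K2C. MBD6 overlaps DDIT3 by 58 exonic bases on the other strand and was at -0.42, -0.71 and -0.65 in the authors' deposited tables, far smaller than the change of DDIT3. R3HDM2 was at -0.53, -0.82 and -0.72, and PIP4K2C was higher, at 0.43 in lactic acidosis. Near NUPR1 1 of 9 coding genes was listed, CLN3 at -0.64 in lactic acidosis, and 0 of 5 near SESN2. Near ADM2, SBF1, NCAPH2 and SCO2 were listed, all higher, at most 0.60.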

How the data were processed

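The deposited tables set each treatment against the same 3 controls. STAR and hg38 are named in the submitters' processing notes; the counting tool is not given in the sources used here. Per the file headers, the authors' posterior probabilities lie between 0 and 1, their fold change is a ratio of control over treated (turned round here), and their group means and per-library values are a signal: counts over size factors, and length-scaled expression, not stated to be TPM or FPKM. Only genes with a probability of equal expression under 0.05 are listed. Control values were equal across tables (largest difference 0).

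The genes, lists and comparisons were chosen with earlier results of these data known. For the treated pairs, limma 3.58.1 (R 4.3.3) was run on log2(value + 1) of genes in both tables, unfiltered, with Benjamini-Hochberg adjustment, after a trial on simulated data. A weight per library was estimated from the deposited group means. Named genes were the 5, up to 4 per list and table by the authors' probability, the 8 most like DDIT3, the 10 with the widest control range at a mean of at least 10, listed neighbours within 100 kb and listed markers. Positions are from GENCODE release 29. Alternatives were pseudocounts of 0.1 and 5, a minimum mean of 1, other scaling, a variance trend, 1 fit of all treated groups, a block for the replicate number, and omission of each library; for lists, a probability under 0.01 or a change of at least 2-fold. Python 3.11.15 was used.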

Additional observations from a re-analysis of the deposited data

Results flagged for a closer look

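These effects against the shared controls differed between treatments by the direct limma test of treated groups: DDIT3 between lactic acidosis and acidosis, at -0.90, and between lactosis and acidosis, at -1.12; INHBE between lactic acidosis and lactosis, at 0.80, and between lactic acidosis and acidosis, at 0.77; and SESN2 between lactic acidosis and lactosis, at 0.52, all as differences of mean log2(value + 1) with 3 libraries a group.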

How the results depend on the processing

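Every difference of the 5 genes from control kept its sign under all alternatives run, and 112 values moved by less than the spread between libraries; the 20 that moved more were of INHBE, ADM2 and SESN2 under another pseudocount or fold scale. Of the comparisons between treated groups, the calls of DDIT3 held under each alternative, and those of INHBE under each but the minimum mean of 1, which left INHBE out. Of the counts of listed-lower genes per list, 47 stayed within 1.5 times and 25 shrank further at a probability under 0.01 or a change of at least 2-fold; those of the stress effectors were among the 47. With each library left out in turn, SESN2 ranged from 0.41 to 0.63 for lactic acidosis against lactosis and from 0.090 to 0.29 for lactic acidosis against acidosis, and INHBE from -0.098 to 0.056 for lactosis against acidosis, where its sign turned without lactosis replicate 2 (0.052) or acidosis replicate 3 (0.056). SESN2 in lactosis against acidosis passed under median-ratio scaling, at -0.40. Genes called between lactic acidosis and lactosis came to 294 rather than 479 with all treated groups in 1 fit, which tested 1042 genes, and to 259 to 663 with a library left out. For lactosis against acidosis the range was 131 to 335 around 280. The causes were otherwise not tested.

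Same-numbered libraries did not deviate together throughout, with correlations from -0.39 to 0.22. With 3 libraries a group, these values cannot tell whether libraries of the same number share a batch. Both replicate 2 libraries with lactate held muscle transcripts, while acidosis libraries could not be checked for them. With the replicate block the calls came to 335, 590 and 240, and SESN2 in lactosis against acidosis passed at -0.34 (adjusted p = 0.0269, limma). Depth limits INHBE and ADM2, whose treated libraries held few reads.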
